A study of Mus musculus with 2 samples.

Results

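Bile acid, sterol and phospholipid transport across the hepatocyte was examined through 10 mouse genes: the export pump genes Abcb11, Abcb4, Abcc2, Abcc3, Abcg5 and Abcg8, the uptake carrier genes Slc10a1, Slco1a1 and Slco1b2, and Nr1h4, which encodes the bile acid receptor FXR. The members were chosen by symbol, as every probe set whose platform annotation names 1 of these genes alone. All 10 genes were on the array, with 16 of its 22690 probe sets, out of 12393 genes in all. A gene counted as measured where its brightest probe set reached a signal of 80 on at least 1 array, and 9 of the 10 genes did so, against 5911 genes overall.

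Liver RNA came from female mice, 2 months old, homozygous for a knockout of the apolipoprotein E gene on a C57BL/6J background, a strain that accumulates lipoprotein remnants in plasma. For 4 weeks the mice ate chow to which 10% by weight of olive oil had been added. In the diet labelled OO this was plain olive oil, and in the diet labelled MAOO it was an olive oil rich in maslinic acid, a triterpene of olive fruit. The study held 12 mice, 6 per diet, but 1 array represents each diet, and the sources used here do not give how many mice it holds. The comparison is between the olive oil rich in maslinic acid and the plain olive oil. Any other difference between the oils cannot be told apart from maslinic acid. With 1 array per diet the comparison has no replicate check, no standard error and no p-value.

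Hepatocytes take bile acids up from the portal blood through carriers of the basolateral membrane, conjugate them or make new ones from cholesterol, and pump them into the canaliculus. Separate canalicular pumps add phosphatidylcholine and sterols, which together with bile acids form the mixed micelles of bile. FXR senses bile acids inside the cell and turns export genes up and synthesis and uptake genes down, while the oxysterol receptor LXR turns the sterol export genes up.

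The labels were checked before the members. Apoe itself read 407.7 on the OO array and 7630 on the MAOO array, 18.7-fold apart, which goes against 1 knockout shared by both diets; where its probes lie in the gene is not known here. Every direction below is therefore between the arrays as labelled. The hepatocyte genes Alb, Ttr and Cps1 were bright on both arrays. All 10 measured hepatocyte markers of the 13 listed were lower on the MAOO array, with a median log2 ratio of -0.15. Their summed signals were 95083 on the OO array and 85738 on the MAOO array. Of all measured genes 52.0% were lower, and the 500 brightest genes had a median of -0.06. The part of brightness in the hepatocyte values was not tested. The bile duct markers Krt7, Krt19 and Epcam and the ileal markers Fabp6 and Fgf15 lay under the floor on both arrays, the floor being a signal of 40; where both arrays lay below it, no ratio was formed. Of the 5 genes in the ileal list 1 was measured, Apoa4, which liver also expresses, at 1902.7 and 2914.9, a log2 ratio of 0.62, with 1.00 on its other probe set. Of the bile duct list 2 of 8 genes on the array were measured, Aqp1 (-0.26) and Cdh1 (-0.11). The 9 macrophage markers had a median of 0.07, with 6 higher and 3 lower, and ranged from Marco at 338.1 and 84.6, a log2 ratio of -2.00, to C1qb at 0.43. The medians were -0.17 over 5 endothelial and 0.24 over 4 stellate cell markers. The part of these markers in the members' values was not tested. In whole liver RNA, fewer cells of a type and less RNA per cell cannot be told apart.

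The measured members differed little between the arrays. Their log2 ratios of MAOO over OO ran from -0.30 (Abcc2) to 0.10 (Abcg8), with a median of -0.10, against a median of -0.0099 over all measured genes. On the MAOO array 6 of the 9 genes were lower and 3 higher. Of all measured genes 52.0% were lower and 47.8% higher, the background for each count of directions below. Of the 9, 2 were at least 1.2-fold lower (Abcc2 and Abcg5), where 9.52% of all measured genes were, and 0 were at least 1.2-fold higher, where 9.47% were. Of these 2, 1 was lost with a loess trend of the ratio on brightness removed (Abcg5) and 1 when _s_at probe sets were omitted (Abcc2). None of the 9 was 1.5-fold apart, a size reached by 1.57% of measured genes downwards and 1.47% upwards. All 9 were brighter than the median measured gene, and the 973 genes with a mean signal of at least 1000 were themselves lower on the MAOO array in 60.8% of cases. Abcc2, Abcg5, Abcg8 and Nr1h4 had mean signals below 1000. Genes with a mean signal within 1.5-fold of that of Abcc2 had a median log2 ratio of -0.0030. Around Abcg5 that median was -0.01. Probe sets reading the same gene on the same pair of arrays gave log2 ratios with an SD of 0.23 among themselves. This spread between probe sets is larger in size than the ratios of 7 of the 9 members. It pools measured probe sets of every brightness and holds no variation between arrays or mice of 1 diet.

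**Figure D1:**
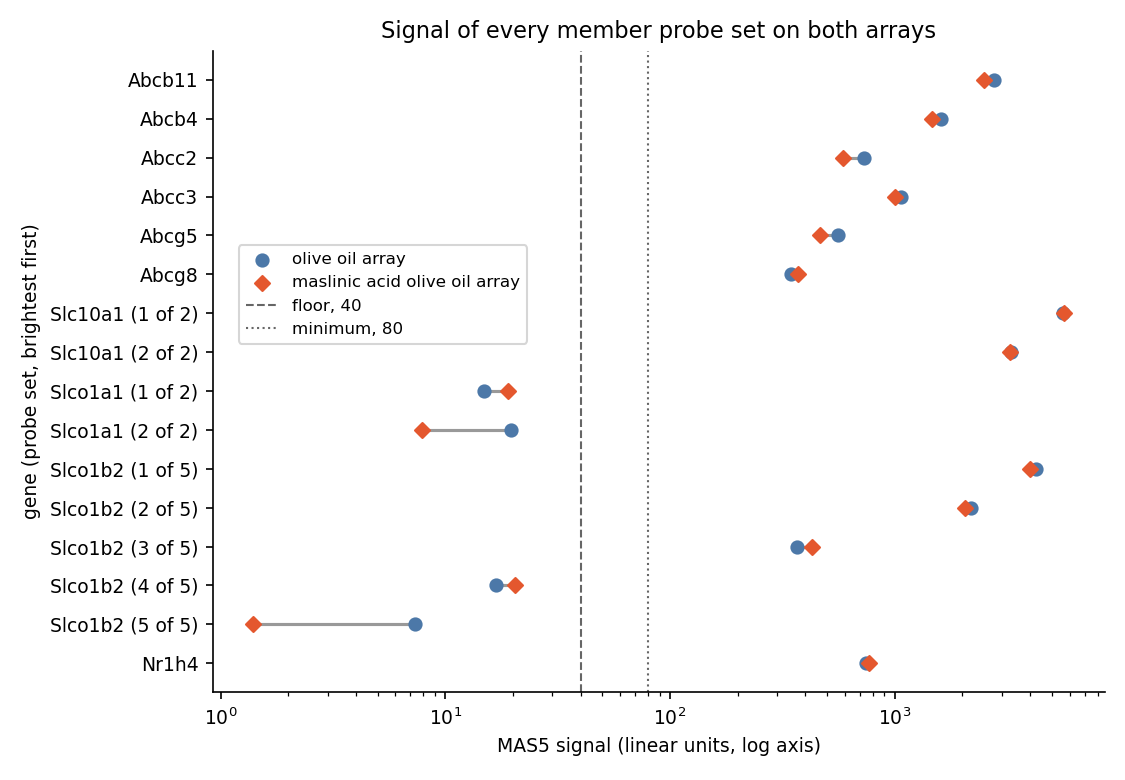
MAS5 signal (linear units on a log axis) of all 16 probe sets of the 10 genes, with 1 point per array: circles for the OO array and diamonds for the MAOO array. The dashed line is the floor of 40 and the dotted line the minimum of 80; 12 probe sets lie above the minimum with nearly coinciding points, and 4 probe sets, both of Slco1a1 and 2 of Slco1b2, lie under the floor.

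The canalicular pumps of bile acids and phospholipid were both slightly lower on the MAOO array. Abcb11, the bile salt export pump, read 2761.5 on the OO array and 2506.2 on the MAOO array, a log2 ratio of -0.14. Abcb4, the floppase that presents phosphatidylcholine to bile, read 1600.5 and 1461.7, a log2 ratio of -0.13. Both differences are about 1.10-fold and smaller in size than the SD of 0.23 between probe sets of 1 gene, which does not measure variation between arrays. Genes of like brightness, those with a mean signal within 1.5-fold of the pump's, had a median log2 ratio of -0.03 around Abcb11 (361 genes) and of -0.01 around Abcb4 (544 genes). Of these genes, 18.6% were lower than Abcb11 in log2 ratio and 18.9% lower than Abcb4, so neither pump stood at an edge of its neighbours.

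The promoter of Abcb11 is shown because FXR acts on this gene through an inverted repeat of the nuclear receptor half-site AGGTCA with 1 base between the half-sites, known as IR-1. RefSeq promoter windows on GRCm38.p6, from 250 bases before to 50 bases after a gene's start, were held for 9 of the 10 genes, 11 windows in all. An IR-1 with at most 1 mismatch over its 12 half-site bases lay in 2 of the 11 windows, those of Abcb11 and Slco1b2, and in 0.0822% of the 32851 mouse windows of the same length. In Abcb11 (chr2:69342567-69342866, minus strand) the match begins 63 bases before the gene's start and carries T4C, and in Slco1b2 (chr6:141629268-141629567, plus strand) it begins 88 bases before and carries T4A, with the consensus base first and positions counted from 1 at the first base of the match. Capitals mark the IR-1 match in each window, 5′ to 3′ on the gene's strand.
Abcb11: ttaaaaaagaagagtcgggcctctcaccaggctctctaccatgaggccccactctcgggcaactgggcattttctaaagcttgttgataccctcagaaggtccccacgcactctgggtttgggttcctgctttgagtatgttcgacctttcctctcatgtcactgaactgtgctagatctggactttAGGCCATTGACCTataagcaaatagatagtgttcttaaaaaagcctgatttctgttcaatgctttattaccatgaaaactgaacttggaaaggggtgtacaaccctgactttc
Slco1b2: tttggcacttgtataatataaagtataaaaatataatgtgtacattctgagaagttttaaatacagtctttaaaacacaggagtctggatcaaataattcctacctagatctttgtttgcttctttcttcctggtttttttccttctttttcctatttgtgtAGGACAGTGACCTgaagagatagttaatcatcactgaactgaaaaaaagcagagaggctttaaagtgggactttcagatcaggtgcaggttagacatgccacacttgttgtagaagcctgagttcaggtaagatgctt
Each of these matches contains 1 exact half-site AGGTCA on the minus strand of the window, so that half-site is not a separate match. The pair of genes with an IR-1 had log2 ratios of -0.14 and -0.10, and the receptor gene itself one of 0.05.

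The sterol pump works only as a pair of half-transporters, Abcg5 with Abcg8, which exports cholesterol and plant sterols into bile. Abcg5 read 559.8 on the OO array and 466.1 on the MAOO array, a log2 ratio of -0.26. Abcg8 read 346.9 and 372.2, a log2 ratio of 0.10. The pair thus lay on opposite sides of 0, Abcg5 lower and Abcg8 higher on the MAOO array, under each scaling tried. Their ratios were 0.37 apart, and of 3752 pairs of probe sets that read 1 gene, 21.2% were at least as far apart. The gap lies within the range seen between probe sets of 1 gene. Abcg5 stood just inside the 1.2-fold size and just outside it with the loess trend removed, and 5.72% of the 1102 genes of like brightness were lower in log2 ratio. For Abcg8 the share was 74.5% of 1477 genes.

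Abcg5 and Abcg8 lie head to head on chromosome 17, and their windows are shown because both starts share a short flank although the ratios differ in sign. The gene starts used for these windows on GRCm38.p6 are 110 bases apart, and 209 bases belong to both windows, which are read from opposite strands (Abcg5 chr17:84682962-84683261, minus; Abcg8 chr17:84682871-84683170, plus). Capitals mark the motif GATAA on either strand, which GATA factors bind and which occurs in 25.4% of all mouse windows.
Abcg5: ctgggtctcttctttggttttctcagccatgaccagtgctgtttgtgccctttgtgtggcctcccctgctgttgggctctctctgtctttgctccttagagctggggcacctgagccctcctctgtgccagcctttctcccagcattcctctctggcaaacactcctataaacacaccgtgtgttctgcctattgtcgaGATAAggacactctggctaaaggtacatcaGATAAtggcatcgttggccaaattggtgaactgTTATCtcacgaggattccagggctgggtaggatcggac
Abcg8: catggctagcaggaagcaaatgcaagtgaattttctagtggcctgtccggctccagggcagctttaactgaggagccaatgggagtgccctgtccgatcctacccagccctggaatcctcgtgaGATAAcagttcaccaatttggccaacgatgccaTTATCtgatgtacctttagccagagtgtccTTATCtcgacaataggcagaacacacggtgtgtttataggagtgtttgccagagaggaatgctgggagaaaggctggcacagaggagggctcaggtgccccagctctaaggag
Each window holds 3 GATAA matches, and all 3 lie in the shared stretch, so they are the same bases read from opposite strands. Abcg8 has another window further upstream (chr17:84676052-84676351, plus strand), in which none of the motifs searched was found.

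The organic anion pumps were lower on the MAOO array. Abcc2, the canalicular pump of conjugated bilirubin and glutathione conjugates, read 730.0 on the OO array and 591.8 on the MAOO array, a log2 ratio of -0.30 and the lowest of the members. It was 1.23-fold lower, 4.18% of the 932 genes of like brightness lay below it, and 7.14% of all measured genes did. Its only probe set ends in _s_at, a class that can read several transcripts. Abcc3, the basolateral pump that returns bile acid and glucuronide conjugates to blood, read 1062.4 and 1002.6, a log2 ratio of -0.08. That is smaller in size than the SD of 0.23 between probe sets of 1 gene.

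**Figure D2:**
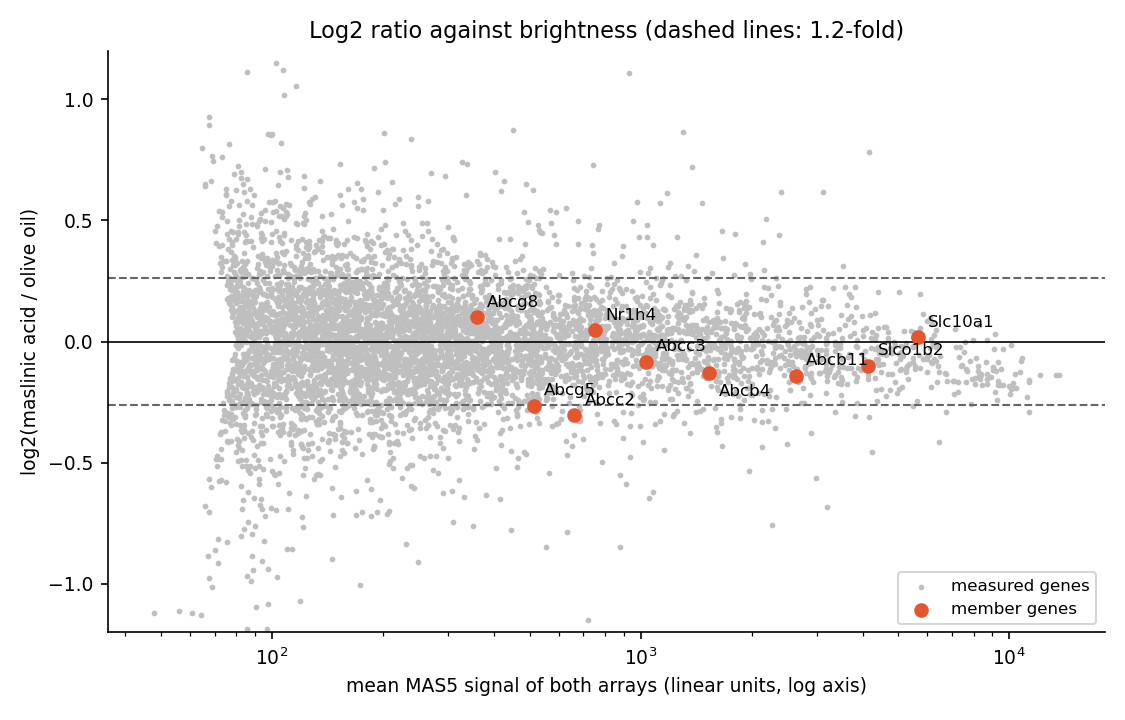
Log2 ratio of the MAOO array over the OO array against the mean signal of both arrays (log axis), with 1 grey point per measured gene and the 9 measured members in colour; 18 genes beyond 1.2 on the log2 axis are not drawn. The dashed lines mark 1.2-fold; Abcc2 and Abcg5 lie at or below the lower line and the other 7 members between the lines.

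Among the uptake carriers, Slc10a1 was nearly equal on both arrays. Slc10a1 encodes the sodium-dependent taurocholate carrier, and its brighter probe set read 5609.0 on the OO array and 5682.3 on the MAOO array, a log2 ratio of 0.02. Its other probe set read 3294.3 and 3266.5, a log2 ratio of -0.01. The probe sets were 0.03 apart and straddled 0, so no direction can be given for Slc10a1. Of the 177 genes of like brightness, whose median was -0.07, 80.2% had a lower log2 ratio.

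Slco1b2, a sodium-independent carrier of bile acids and organic anions, was read by 5 probe sets, of which 3 were measured. The brightest read 4275.5 on the OO array and 3989.0 on the MAOO array, a log2 ratio of -0.10. The next read 2195.8 and 2061.7, a log2 ratio of -0.09. The dimmest of the 3 read 368.4 and 430.8, a log2 ratio of 0.23 in the opposite direction. The 0.33 between them is matched or passed by 25.3% of same-gene pairs, and with the mean of the 3 the gene's log2 ratio was 0.01. The remaining probe sets, at 16.9 and 20.4 and at 7.3 and 1.4, lay under the floor.

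Slco1a1, an anion carrier known in mouse liver as male-predominant, gave no measurable signal. Its probe sets read 14.9 on the OO array and 19.1 on the MAOO array, and 19.6 and 7.9, under the floor on both, so no ratio was formed. Both arrays carry the female label, and Xist, the RNA of the silenced X chromosome, had its brightest probe set at 2866.6 and 2136.0. The part of sex in the Slco1a1 signal was not tested, since neither array is labelled male. Slco1a4, the neighbouring gene of Slco1a1 in the Slco1 cluster of chromosome 6, read 1269.4 and 1396.3, a log2 ratio of 0.14. The other Slco1 genes of the cluster with a probe set, Slco1c1, Slco1a5 and Slco1a6, read at most 9.3 on either array.

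Nr1h4 itself read 742.0 on the OO array and 766.4 on the MAOO array, a log2 ratio of 0.05, with 64.4% of the 863 genes of like brightness below it. Its partner in DNA binding, Rxra, read 675.9 and 718.3, a log2 ratio of 0.09, although a further probe set gave -0.32. Nr0b2, the repressor SHP that FXR induces, read 485.6 and 430.5, a log2 ratio of -0.17. On their brightest probe sets Nr1h4, Rxra and Nr0b2 all stayed within 1.2-fold. Most measured genes did so too, since 9.47% reached that size upwards and 9.52% downwards. Rxrb, another partner of such receptors, did reach it, with a log2 ratio of -0.56. Of the 11 measured genes in the list of nuclear receptors and partners, 2 reached it upwards and 2 downwards.

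Other motifs were searched in the same windows. The half-site AGGTCA lay in 6 of the 11 windows, against 16.3% of all windows, on either strand: those of Abcb11, Abcc2, Slco1a1, Slco1b2, Nr1h4 and the second window of Slc10a1. The TATA box letters TATAAA lay in 5 of the 11 (13.6% of all windows), GATAA in 6 (25.4%) and the GC box letters GGGCGG in 1, that of Abcb4 (35.7%). The Abcg5 window and the first Abcg8 window share 209 bases. Their TATAAA and GATAA matches lie in that stretch, so the same bases count for both windows. A match in these letters is a description of the sequence and not a bound site.

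**Figure D3:**
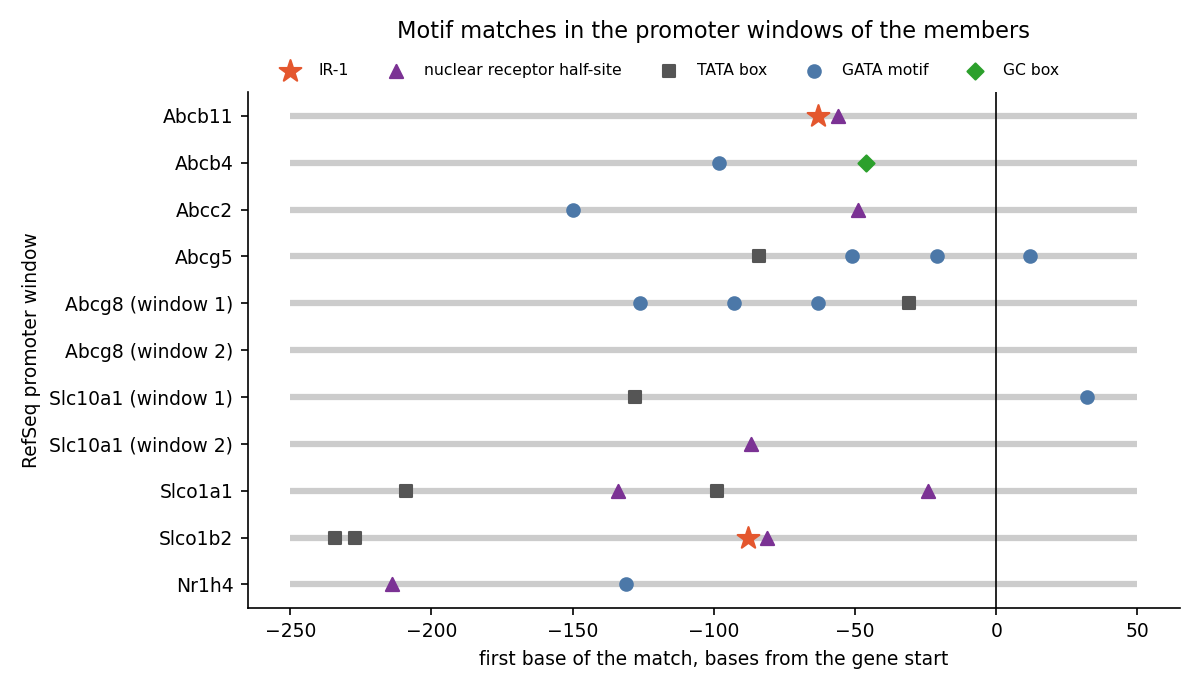
Position of each motif match in the 11 RefSeq promoter windows of the members, as the first base of the match in bases from the gene start (0); grey bars are the windows and symbols the motif types. IR-1 matches (stars) appear in Abcb11 and Slco1b2, each with the half-site it contains beside it, and the 3 GATA matches of Abcg5 recur in the first Abcg8 window.

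Neighbouring genes of the same transport pathway were compared by lists. Of 10 other basolateral uptake genes, 7 were measured, 2 higher and 5 lower on the MAOO array, with a median log2 ratio of -0.0078. The organic anion carrier Slc22a7, at 82.7 and 116.5, had the highest log2 ratio of them, 0.49, and the other 6 lay within 1.2-fold. Slc27a2 (-0.02) and the bile acid CoA ligase Slc27a5 (-0.0035) were close to 0. Of 16 other canalicular and efflux genes, 7 were measured, 3 higher and 4 lower, with a median of -0.01. Here the sterol exporter Abcg1 read 177.5 and 127.8, a log2 ratio of -0.47, and the cholesterol exporter Abca1 2123.4 and 1830.0, a log2 ratio of -0.21, with 0.20 on its dimmer probe set. The cation exporter Slc47a1 had a log2 ratio of 0.21 and Abcb6 one of 0.08. Slc51a, the bile acid exporter subunit, and Abcb1b lay under the floor on both arrays.

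Over the ABC transporter genes as a family, apart from the members, 16 of 30 were measured, 7 higher and 9 lower, with a median log2 ratio of -0.01. Of these, 3 were at least 1.2-fold lower, namely Abcg1, Abca8b (-0.48) and Abcd2 (-0.51), named because of their size, and 0 were at least 1.2-fold higher, beside 9.52% and 9.47% of all measured genes. The count of lower genes was 1 where a signal of 160 was required. Abcd2 read 99.8 and 70.0 and Abca8b 142.8 and 102.3, both dim.

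The known target genes of the receptors differed by list. Of 15 FXR target genes other than the members, 11 were measured, 5 higher and 6 lower, with a median log2 ratio of -0.0035, which turned to 0.11 with quantile scaling and to 0.09 with a loess trend removed. Pltp, the phospholipid transfer protein, was 1.54-fold higher at 2466.6 and 3787.3, with a log2 ratio of 0.62, and 0.44 on its other probe set. Apoc2 had a log2 ratio of 0.17 and Sdc1 one of 0.15. Of 12 LXR target genes other than the members, 11 were measured and 9 were lower, where 52.0% of all measured genes were. Their median was -0.19 (-0.15 with quantile scaling and -0.13 with the loess trend removed). Among the lower genes, dimmer probe sets of Abca1, Cyp7a1 and Lpl gave 0.20, 0.26 and 0.47, and that of Scd1 gave -0.35. The count of lower genes thus rests on the brightest probe set of each gene. Abcg1 (-0.47), Mylip, the ubiquitin ligase of the LDL receptor (-0.38), Srebf1 (-0.35) and Fasn (-0.28) were at least 1.2-fold lower, 4 genes of the 11 beside 9.52% of all measured genes, and the count was 3 with quantile scaling and with the loess trend removed. Pltp, which both lists hold, and the LXR alpha gene Nr1h3, at 331.8 and 406.9 with a log2 ratio of 0.29, were higher. Of the sterol pump genes that LXR also controls, Abcg5 lay among the lower ones and Abcg8 did not. The median of the LXR list was close to that of the hepatocyte markers (-0.15), and the part of either in the other was not tested.

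Bile acid synthesis and conjugation showed no common direction. All 14 genes were measured, 7 higher and 7 lower, with a median log2 ratio of 0.01. Cyp7a1, the rate-limiting enzyme of the classical pathway, read 676.2 and 662.4, a log2 ratio of -0.03, and 0.26 on its dimmer probe set. Akr1d1 read 868.8 and 1214.2, a log2 ratio of 0.48, against 0.04 on its other probe set. Hsd3b7 had a log2 ratio of -0.21, Hsd17b4 one of 0.19 (-0.13 on its other probe set) and Baat, which conjugates bile acids, one of 0.13.

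Genes that supply phospholipid and cholesterol to the canaliculus were all slightly higher on the MAOO array. All 8 measured genes of the 12 listed had log2 ratios above 0, where 47.8% of all measured genes did. They ran from 0.02 (Pemt) to 0.13 (the phosphatidylcholine transfer protein gene Pctp), with a median of 0.07. Of the 8, 0 reached 1.2-fold, beside 9.47% of all measured genes upwards and 9.52% downwards. Anxa2 had a log2 ratio of 0.12, Pcyt1a, which controls phosphatidylcholine synthesis, one of 0.08, and the HDL receptor gene Scarb1 one of 0.08. Further probe sets of Pcyt1a and Npc2 gave -0.26 and -0.24, so the shared sign rests on the brightest probe set of each gene.

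Among the nuclear receptors and their partners 11 of 15 genes were measured, 4 higher and 7 lower, with a median log2 ratio of -0.01. Rxrb, another partner of these receptors, read 269.2 and 182.4, a log2 ratio of -0.56 and the lowest of the list by brightest probe set. Genes of the list with several measured probe sets disagreed among them. Hnf4a ran from -0.22 to 0.64, Nr5a2 from -0.81 to 0.05, Nr1i2 from -0.0099 to 0.50 and Rxra from -0.32 to 0.09. The directions in this list thus rest on the brightest probe set of each gene. The fatty acid receptor gene Ppara read 1541.4 and 1186.8, a log2 ratio of -0.38. Fgfr4, through which the intestinal hormone FGF15 restrains bile acid synthesis, read 205.9 and 257.0, a log2 ratio of 0.32, while its co-receptor Klb had a log2 ratio of -0.18.

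**Figure D4:**
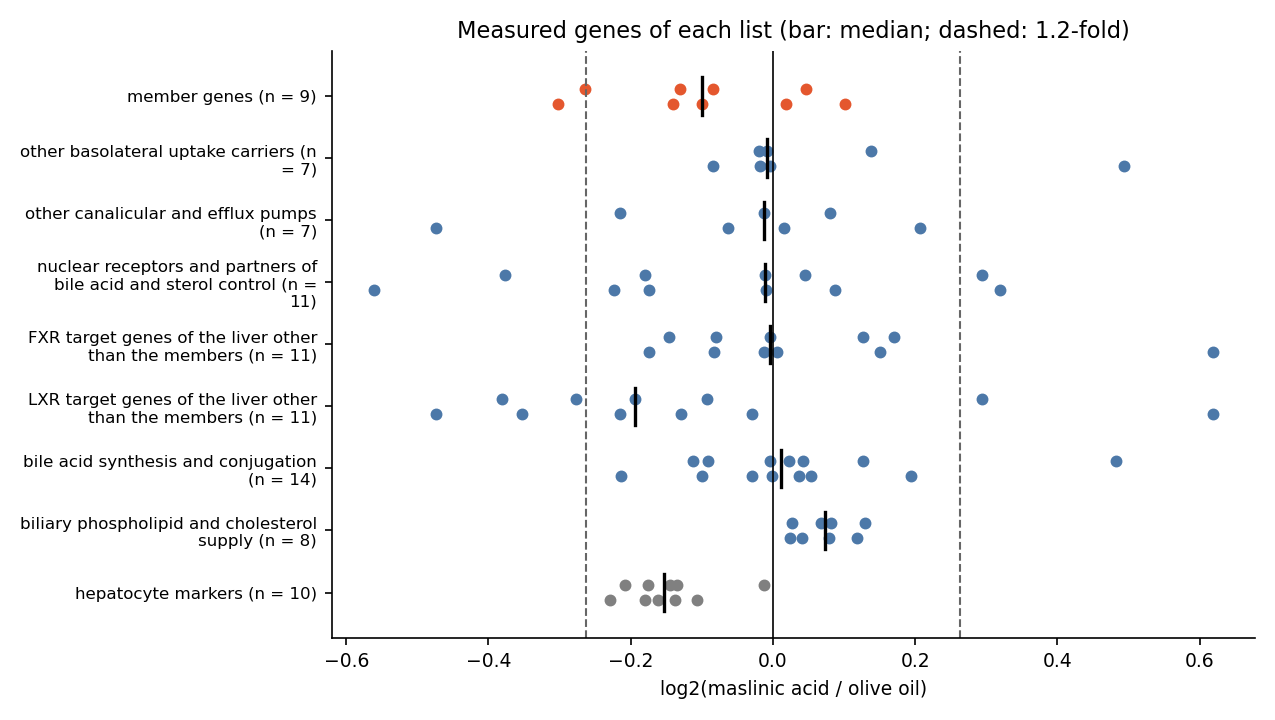
Log2 ratio of the MAOO array over the OO array for each measured gene of each list (1 point per gene, a bar at the median, dashed lines at 1.2-fold). The 9 members have a median of -0.10, between the LXR target genes (-0.19) and the genes of phospholipid and cholesterol supply (0.07), and the 10 hepatocyte markers all lie below 0.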

How the data were processed

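Liver total RNA was labelled with biotin and hybridised to 1-colour Affymetrix arrays, 1 per diet, per the labels' protocols. The authors computed 1 intensity per probe set with MAS5, per the submitters' processing notes; no source used here gives its version or settings. On both arrays the 2% trimmed mean of the deposited intensities was 200.1, and 48.4% and 48.2% of probe sets lay under 40. MAS5 signals of dim probe sets vary most, and with no detection calls used here, signal alone judged what was measured.

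The deposited scaling was kept, signals under 40 were set to 40, and log2 ratios were taken. Each gene was represented by its brightest probe set, by the mean of both arrays. Symbols came from the platform annotation; of 20380 probe sets naming 1 gene, controls aside, 20351 matched a GRCm38.p6 table of genes through the Entrez identifier. Named genes are all members and, per pathway list, up to 4 genes with the largest absolute log2 ratio, any gene of these lists at least 1.5-fold apart, Cyp7a1, Nr0b2 and Apoe; others, such as cell type markers, are named for their place in a pathway, list or gene order, after their values were seen. With 2 arrays a likeness of patterns was not sought. Members and lists were chosen with earlier results of these data known. The alternatives were 4 further scalings, floors of 20 and 80, 3 other minimums, the mean of all measured probe sets, and omission of _x_at and _s_at probe sets. Python 3.11.15, pandas 2.3.3 and statsmodels 0.14.6 were used. The steps were tested on simulated data with planted changes larger than any member showed, which does not test differences near 1.2-fold.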

Additional observations from a re-analysis of the deposited data

How the results depend on the processing

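No array could be left out, and no paired analysis was possible because a diet has a single array. Over 11 alternatives, all 98 log2 ratios of the measured members moved by less than 0.23, the SD between probe sets of 1 gene. Of these, 1 changed sign, that of Slco1b2 with the mean of its measured probe sets (0.01). The limit of 0.23 is wide, since it exceeds in size the ratios of 7 of the 9 members. The other floors and minimums could not move these ratios, because the brightest probe set of every measured member read at least 346.9. Rescaling to the same trimmed mean could hardly move them, as both arrays already stood at 200.1. The number of members at least 1.2-fold lower was 2 as reported, 1 with the loess trend removed, where Abcg5 came to -0.26, just short of that size, and 1 when _x_at and _s_at probe sets were omitted, which left Abcc2 without a value. No member was 1.2-fold higher under any alternative. The medians of the neighbouring lists moved by less than 0.23 in all 88 values, and 6 changed sign, each from a main value within 0.02 of 0. The measured members lie well above the floor, but the trend of the ratio on brightness bears on their median. With the trend removed by loess, that median moved from -0.10 to -0.08. Over all alternatives that gave a value, Abcc2 stayed between -0.31 and -0.30 and Abcg5 between -0.27 and -0.26. Abcb11 ran from -0.15 to -0.11 and Slc10a1 from 0.0033 to 0.09. The single array per diet limits every value.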
